A study of Homo sapiens with 6 samples.

Results

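The ligands and receptors of the TNF superfamily were followed in BT549 cells, a breast cancer cell line labelled as mesenchymal, after knockdown of basonuclin-2 (BNC2), a zinc finger protein. Members were taken by symbol from the deposited gene table: every TNFSF and TNFRSF gene followed by a number, together with TNF, LTA, LTB, LTBR, FAS, FASLG, CD27, CD40, CD40LG, CD70, EDAR and NGFR. This gave 45 of the 23346 genes of the table, 18 ligands and 27 receptors. Wild-type BT549 cells received 20 nM negative control (NC) siRNA or 20 nM BNC2 siRNA, and poly(A) RNA was collected 6 d later, with 3 libraries in each group. The methods call these biological replicates of a single cell line but do not say whether they came from separate cultures, so p-values measure the spread between these libraries.

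TNF superfamily ligands are mostly trimers that sit in the membrane of a cell and can be cut off as soluble cytokines. Their receptors share cysteine-rich repeats outside the cell. Receptors with a cytoplasmic death domain, such as TNFRSF1A and FAS, can assemble caspase-activating complexes, other receptors bind TRAF adaptors and feed into NF-κB and kinase signalling, and decoy receptors bind ligand without passing on a death signal. In carcinoma cells the family is known for its part in inflammation, in survival or death, and in contact with immune cells.

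The perturbation itself is shown by the antisense strands of the 3 siRNAs that were mixed in equal parts and of the NC siRNA, with the seed (bases 2 to 8 from the 5′ end) in capitals:
BNC2 siRNA 1: uUUACACUgaucacaagucct
BNC2 siRNA 2: uUGUCAUAgaaugucuucctt
BNC2 siRNA 3: uUUCGGCUucguacagaggtt
NC siRNA: aCGUGACAcguucggagaatt
The first 19 bases of the sense strands of the BNC2 siRNAs were found in 12, 6 and 7 of 16 annotated BNC2 transcripts. Over these 19 bases, none of the 4 sense strands was found in any of 267 transcripts of the members. Shorter matches, such as those of the seed, were not searched for, so effects of the seed on the members were not tested. BNC2 itself, on chromosome 9 of GRCh37 (the assembly of hg19) from 16409501 to 16870841, had 65.6, 51.5 and 58.6 CPM (counts scaled to the size of the library) with NC siRNA and 35.5, 36.6 and 41.6 CPM with BNC2 siRNA. The knockdown left 64.6% of the control transcript (log2 fold change, log2FC, of BNC2 siRNA against NC siRNA, -0.63 ± 0.09 standard error (SE), adjusted p = 8.2e-06), and the groups did not overlap.

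Library totals lay between 16093978 and 18246254 counts. Of 5 markers of a mesenchymal breast line, VIM, FN1, ZEB1 and CDH2 were up-regulated and SPARC was down-regulated, with a summed level of 6367 to 6461 CPM in the NC siRNA libraries and 6501 to 6755 CPM in the BNC2 siRNA libraries. The 5 epithelial markers, among them CDH1 and EPCAM, summed to at most 0.338 CPM in any library, and the 5 endothelial markers to at most 1.51 CPM. The 5 leukocyte markers summed to 113 to 127 CPM with NC siRNA and 139 to 151 CPM with BNC2 siRNA. Nearly all of this was CD68, a lysosomal protein that is also made outside the leukocyte lineage, whereas PTPRC, the defining leukocyte gene, stood at 0.214 and 0.296 CPM on average. CD14 fell from 1.70 to 0.635 CPM. The part of these markers in the results for the members was not tested.

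Of the 45 members, 14 exceeded 1 CPM in 3 or more of the 6 libraries and were tested. Of these, 6 were up-regulated, 6 were down-regulated and 2, CD70 and LTBR, were not called. A call means that the quasi-likelihood test of edgeR gave an adjusted p of 0.05 or below. Across all 12186 genes tested, 36.6% were called up-regulated and 36.2% down-regulated, 72.9% in all, and in 74.9% the libraries of the groups did not overlap. Among the 14 members the groups did not overlap in 12. The 85.7% of tested members called stands beside this high background, and nothing is read from it about the family. Over the 14, the median log2FC was -0.04, against 0.00 for all genes tested, and the median absolute change was 0.84, against 0.44. NGFR passed the filter only through the NC siRNA libraries and so had to differ. It is included in the counts of calls given here, although the filter fixed its direction. By role, 3 of the 4 ligands tested fell and none rose, and of the 10 receptors tested 6 rose and 3 fell. The difference between ligands and receptors was not tested. In bulk RNA, fewer cells that carry a transcript and less transcript per cell cannot be told apart.

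**Figure D1:**
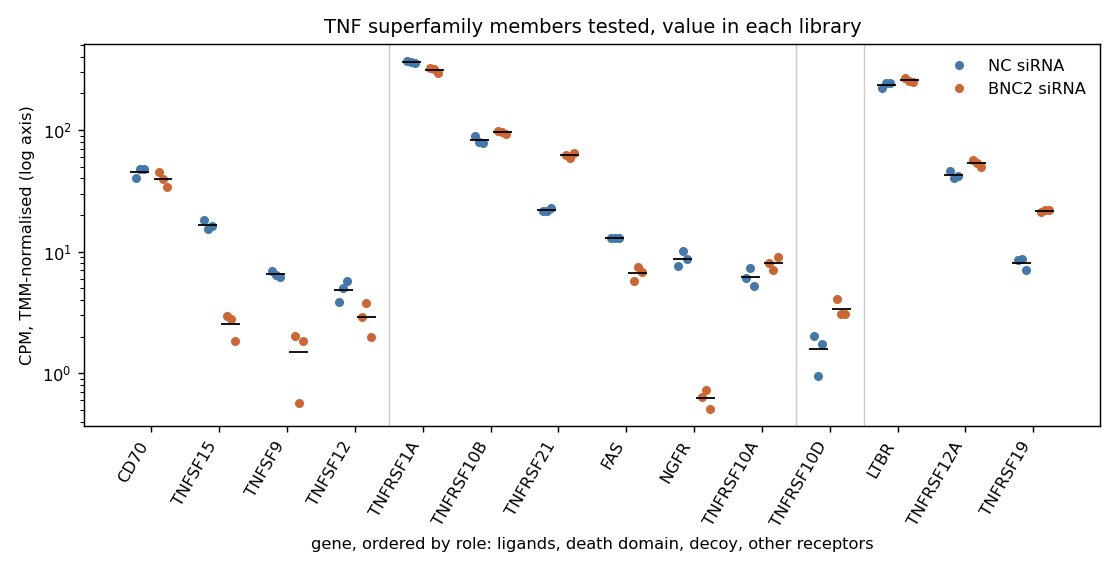
TMM-normalised CPM (log axis) of the 14 members tested, with a point for each library, a black line at the mean of 3 libraries, and NC siRNA in blue beside BNC2 siRNA in orange. TNFSF15, TNFSF9 and NGFR sit well below their controls, and TNFRSF21 and TNFRSF19 well above, while CD70 and TNFRSF10A overlap between groups.

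Among the ligands, TNFSF15 had the largest fall of those tested. TNFSF15 encodes a ligand of TNFRSF25 that is known to act on T cells and on endothelial cells. It lies on chromosome 9 from 117546932 to 117568319 (GRCh37, minus strand). The NC siRNA libraries held 18.03, 15.3 and 16.3 CPM, and the BNC2 siRNA libraries 2.97, 2.76 and 1.85 CPM. All BNC2 siRNA libraries lay far below the lowest control. TNFSF15 fell by a log2FC of -2.70 (± 0.15 SE, adjusted p = 1.4e-10), to 15.4% of the control level.
TNFSF9, the ligand of the T cell costimulatory receptor TNFRSF9, lies on chromosome 19 from 6531037 to 6535935. It had 6.93, 6.39 and 6.20 CPM with NC siRNA and 2.04, 0.564 and 1.85 CPM with BNC2 siRNA. The lowest value was that of BNC2 siRNA replicate 2, which rested on 10 counts against 35 and 29 in the other two. TNFSF9 fell by a log2FC of -2.15 (± 0.26 SE, adjusted p = 1.4e-06).
TNFSF12, a ligand made by many cell types that binds TNFRSF12A, had 3.83, 4.99 and 5.72 CPM with NC siRNA and 2.91, 3.78 and 1.97 CPM with BNC2 siRNA. The highest BNC2 siRNA library lay just below the lowest NC siRNA library. The log2FC was -0.73 (± 0.22 SE, adjusted p = 0.0068). In GENCODE, 12.1% of the exon bases of TNFSF12 are shared with the readthrough gene TNFSF12-TNFSF13 on the same strand, and reads on bases that the counting annotation shares between genes were assigned to none.
CD70, the ligand of CD27, was the most abundant ligand and the only one tested that was not called. Its level was 40.4, 47.4 and 47.6 CPM with NC siRNA and 44.7, 39.6 and 33.7 CPM with BNC2 siRNA, and the groups overlapped. The log2FC was -0.19 (95% interval -0.40 to 0.01, adjusted p = 0.078).
Summed over all 18 ligands, the level was 71.8 to 77.7 CPM with NC siRNA and 40.0 to 53.6 CPM with BNC2 siRNA. Without CD70 the sum was 29.3 to 31.4 CPM with NC siRNA and 6.30 to 8.84 CPM with BNC2 siRNA. CD70 thus made up 56.3% to 61.8% of the summed ligand CPM, which is not scaled by gene length, in the controls and 83.4% to 84.3% after knockdown.

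The promoters of the pair of ligands that fell most are shown because they were the called ligands with a RefSeq promoter window, 250 bases before to 50 bases after the annotated start (GRCh38.p14, an assembly other than that of the counts). Letters found by a search for TGANTCA (the AP-1 motif), TATAAA (the TATA box) and the NF-κB consensus on both strands are in capitals.
TNFSF15, chr9:114792481-114792780, minus strand: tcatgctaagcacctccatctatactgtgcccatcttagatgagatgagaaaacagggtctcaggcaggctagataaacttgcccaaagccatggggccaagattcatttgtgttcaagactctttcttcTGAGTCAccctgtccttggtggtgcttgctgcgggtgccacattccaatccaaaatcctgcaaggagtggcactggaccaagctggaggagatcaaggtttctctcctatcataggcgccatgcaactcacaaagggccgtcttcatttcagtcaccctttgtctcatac
TNFSF9, chr19:6530776-6531075, plus strand: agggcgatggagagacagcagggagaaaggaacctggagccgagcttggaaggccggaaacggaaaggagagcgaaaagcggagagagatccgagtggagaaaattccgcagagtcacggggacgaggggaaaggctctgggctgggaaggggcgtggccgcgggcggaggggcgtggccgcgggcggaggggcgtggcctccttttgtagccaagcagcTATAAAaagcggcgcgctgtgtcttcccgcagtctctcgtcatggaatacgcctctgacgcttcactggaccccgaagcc
The TNFSF15 window holds an AP-1 motif that starts 120 bases before the annotated start, and no TATA box. The TNFSF9 window holds a TATA box that starts 30 bases before the annotated start, and no AP-1 motif. Neither holds the NF-κB consensus. Of the 27305 genes with a promoter window, taking the first window of each, 7.76% hold the AP-1 motif, 12.0% the TATA box and 10.8% the NF-κB consensus. Among the 8772 genes tested that have a window, the shares were 4.4%, 5.28% and 13.0%. A match is a run of letters and not a measured binding site. Only 7 of the 14 members tested have a window, so no share over the members is given.

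Death-domain receptors moved in both directions: of the 6 tested, 3 fell and 3 rose, where 72.9% of all genes tested were called. The falls include NGFR, whose direction the filter fixed, and 1 of the rises was the weak call of TNFRSF10A. NGFR, the low-affinity neurotrophin receptor, had the largest change of any member tested. It lies on chromosome 17 from 47572655 to 47592370 (plus strand). NGFR had 7.55, 10.0 and 8.67 CPM with NC siRNA and 0.640, 0.733 and 0.509 CPM with BNC2 siRNA. Each BNC2 siRNA library held 8 to 13 counts, against 134 to 179 in the controls. The log2FC was -3.78 (± 0.22 SE), or 7.30% of the control transcript. NGFR passed the filter only through the NC siRNA libraries, so its size and rank are descriptive and no p-value is given.
FAS, the receptor of FASLG that starts extrinsic apoptosis, had 13.0, 12.9 and 12.9 CPM with NC siRNA and 5.70, 7.50 and 6.81 CPM with BNC2 siRNA. The controls were nearly identical, and each BNC2 siRNA library lay well below them. FAS fell by a log2FC of -0.96 (± 0.12 SE, adjusted p = 2.8e-06).
TNFRSF1A, the receptor through which TNF acts on most cells, was the most abundant member. Its level was 366, 364 and 355 CPM with NC siRNA and 325, 319 and 291 CPM with BNC2 siRNA. The groups did not overlap, but the fall was small, with a log2FC of -0.21 (± 0.06 SE, adjusted p = 0.0027).
TNFRSF21, a death-domain receptor studied in neurons and T cells, rose. It lies on chromosome 6 from 47199268 to 47277641 (minus strand). TNFRSF21 had 21.4, 21.7 and 22.8 CPM with NC siRNA and 62.2, 58.9 and 64.1 CPM with BNC2 siRNA. The libraries of a group lay close together and the groups far apart. Its log2FC was 1.49 (± 0.07 SE, adjusted p = 2.1e-11), a 2.81-fold rise.

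Receptors for TNFSF10 (TRAIL), a ligand that can kill tumour cells, sit side by side on chromosome 8 from 22877646 to 23082615. TNFRSF10A and TNFRSF10B carry a death domain, whereas TNFRSF10C and TNFRSF10D act as decoys. TNFRSF10B was the most abundant of the 4, with 89.9, 80.2 and 78.0 CPM with NC siRNA and 97.9, 96.3 and 92.9 CPM with BNC2 siRNA. It rose by a log2FC of 0.21 (± 0.07 SE, adjusted p = 0.0085), and was called in 11 of 14 alternative settings.
TNFRSF10D had 2.03, 0.952 and 1.75 CPM with NC siRNA and 4.07, 3.05 and 3.06 CPM with BNC2 siRNA, so that each BNC2 siRNA library lay above each control. Its log2FC was 1.11 (± 0.25 SE, adjusted p = 0.0009).
TNFRSF10A overlapped between groups, at 6.08, 7.34 and 5.18 CPM with NC siRNA and 8.03, 6.996 and 8.98 CPM with BNC2 siRNA. It was the weakest call among the members, with a log2FC of 0.36 (± 0.15 SE, adjusted p = 0.042), and was not called in 8 of the 14 alternative settings.
TNFRSF10C had 4, 2 and 1 counts with NC siRNA and 1, 0 and 2 counts with BNC2 siRNA, and could not be compared at this depth. Their ligand TNFSF10 had 10, 12 and 0 counts with NC siRNA and 0 in each BNC2 siRNA library. NC siRNA replicate 3 was thus at 0 like the knockdown libraries. Against 3 counts per library, the number that a count of 0 allows, the mean level of TNFSF10 in the controls was 2.31-fold higher. This figure rests on NC siRNA replicates 1 and 2. It takes no account of the spread between the controls and is not a bound on the group difference.

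Among the remaining receptors, which mostly signal through TRAF adaptors, 3 were tested. TNFRSF19, a receptor known from the skin, the nervous system and Wnt-responsive cells, had 8.45, 8.68 and 7.04 CPM with NC siRNA and 21.1, 21.9 and 22.0 CPM with BNC2 siRNA. The groups were well separated. TNFRSF19 lies on chromosome 13 from 24144509 to 24250243 and rose by a log2FC of 1.43 (± 0.11 SE, adjusted p = 3.3e-09), which is 2.69-fold.
TNFRSF12A, the receptor of TNFSF12, had 45.8, 40.6 and 41.8 CPM with NC siRNA and 56.4, 53.1 and 49.7 CPM with BNC2 siRNA. It rose by a log2FC of 0.31 (± 0.07 SE, adjusted p = 0.0012). TNFSF12 and TNFRSF12A were the only ligand and receptor of 31 ligand-receptor pairs listed in which both genes were tested, and they moved in opposite directions.
LTBR, the lymphotoxin β receptor, had 221, 242 and 244 CPM with NC siRNA and 268, 251 and 249 CPM with BNC2 siRNA. The groups did not overlap, yet LTBR was not called, with a log2FC of 0.12 (95% interval -0.01 to 0.24, adjusted p = 0.080). Its neighbour TNFRSF1A on chromosome 12 fell, as given above.

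**Figure D2:**
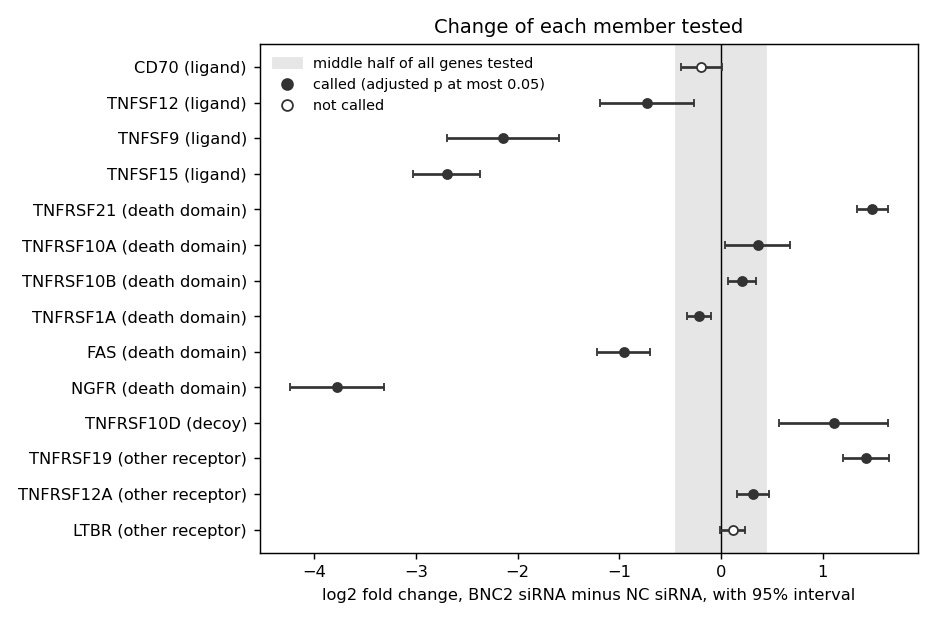
Log2 fold change (BNC2 siRNA minus NC siRNA) of each member tested with its 95% interval, grouped by role. Filled points were called, open points were not, and the grey band holds the interquartile range of all genes tested, from -0.44 to 0.44. The 4 ligands all lie left of 0, and the receptors spread from -3.78 (NGFR) to 1.49 (TNFRSF21).

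Levels can be compared between genes only per length, and were divided by the length of the canonical GENCODE transcript, which was not carried over to GRCh37 for FAS. Among the 13 tested members with such a length, in the NC siRNA libraries, TNFRSF1A led with 166.7 ± 2.72 CPM per kb (SD, n = 3), followed by LTBR with 110.6 ± 5.95, CD70 with 49.5 ± 4.49 and TNFRSF12A with 43.8 ± 2.77. CD70 and TNFRSF12A differed by less than their summed SDs. TNFRSF10B followed with 20.7 ± 1.59 and TNFRSF21 with 6.12 ± 0.205. TNFSF9 (3.98 ± 0.232), TNFSF12 (3.52 ± 0.691), NGFR (2.57 ± 0.364), TNFSF15 (2.51 ± 0.207), TNFRSF10A (2.30 ± 0.403) and TNFRSF19 (1.82 ± 0.200) formed a lower group in which each differed from the next by less than their summed SDs, and TNFRSF10D was the lowest of the 13 with 0.446 ± 0.158. After knockdown TNFRSF21 stood at 17.2 ± 0.735 CPM per kb, TNFRSF19 at 4.89 ± 0.114 and TNFSF15 at 0.384 ± 0.0907. TNFRSF1A and LTBR together made up 74.6% to 76.6% of the summed receptor CPM, not scaled by length, in the controls and 68.4% to 69.7% after knockdown.

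The other 31 members were too low to test, with at most 31 counts in any library. Of these, 9 had no count in any library: TNFRSF4, TNFSF18, CD27, TNFRSF17, TNFSF12-TNFSF13, TNFRSF13B, EDAR, LTB and CD40LG, most of them genes of lymphocytes. For TNFSF12-TNFSF13 this says little, since in GENCODE 100% of its exon bases are shared with other genes. The low counts of TNFRSF6B (100% shared with RTEL1-TNFRSF6B) and TNFSF13 (55.5% shared with TNFSF12-TNFSF13) have the same limit. The counts were made on another annotation, so the overlaps given here need not be those that applied in counting. CD27 is the receptor of CD70, so the most abundant ligand had no counted receptor here. Of the 22 members with some counts, 20 had a lower mean CPM with BNC2 siRNA, as did 65.8% of all 5935 genes below the filter with some counts. With at least 10 counts in all libraries together there were 13, of which 12 were lower and 1, TNFSF4, was higher, where 66.9% of 2426 such genes were lower. These shares carry no test.
TNFRSF1B, the TNF receptor of leukocytes and endothelium, had 31, 29 and 16 counts with NC siRNA and 1, 0 and 0 with BNC2 siRNA. The ratio of the pooled counts, scaled by library size, was 73.7 in favour of NC siRNA (95% interval 12.8 to 2948, exact, for counting error only). TNFSF13B, a survival factor of B cells, had 19, 17 and 12 counts with NC siRNA and 3, 0 and 1 with BNC2 siRNA, a ratio of 11.6 (4.26 to 44.4). For both genes every BNC2 siRNA library lay below every control.
TNFRSF9, the receptor of TNFSF9, had 5, 18 and 10 counts with NC siRNA and 2, 2 and 1 with BNC2 siRNA, a ratio of 6.40 (2.48 to 21.0). The fall of TNFSF9 and the lower counts of its receptor thus went the same way. TNFRSF14, which binds TNFSF14, had 24, 21 and 8 counts against 4, 9 and 1, a ratio of 3.67 (2.01 to 7.16), and NC siRNA replicate 3 overlapped the knockdown libraries.
LTA, the ligand of the same receptors as TNF, had 3, 6 and 6 counts against 0, 1 and 0, a ratio of 14.5 (2.24 to 612). TNF itself had 1, 1 and 0 counts with NC siRNA and none with BNC2 siRNA, so a change of TNF was not detectable at this depth. TNFRSF8 had 6, 7 and 0 counts against 0, 0 and 1, a ratio of 12.6 (1.89 to 536), and TNFRSF13C had 7, 12 and 11 against 3, 5 and 3, a ratio of 2.64 (1.29 to 5.85).
TNFSF4, a costimulatory ligand of T cells, had 9, 0 and 6 counts with NC siRNA and 11, 10 and 9 with BNC2 siRNA. Its ratio was 0.485 (0.242 to 0.930), and the controls ranged from 0 to 9 counts. TNFRSF25 (26 against 19 counts in all), TNFRSF11A (38 against 31), TNFRSF10C (7 against 3) and TNFRSF11B, the decoy receptor osteoprotegerin (7 against 4), had counting intervals that hold a ratio of 1. The 9 others with under 10 counts in all were TNFRSF18, FASLG, TNFSF11, TNFSF13, TNFSF14, CD40, TNFRSF6B, TNF and TNFSF8. They fell below the minimum set for a comparison. Counting intervals lay above 1 for TNFSF13 (8 against 1 counts, 1.04 to 344) and TNFSF11 (6 against 0 counts, from 1.14). Those of the rest held 1.

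**Figure D3:**
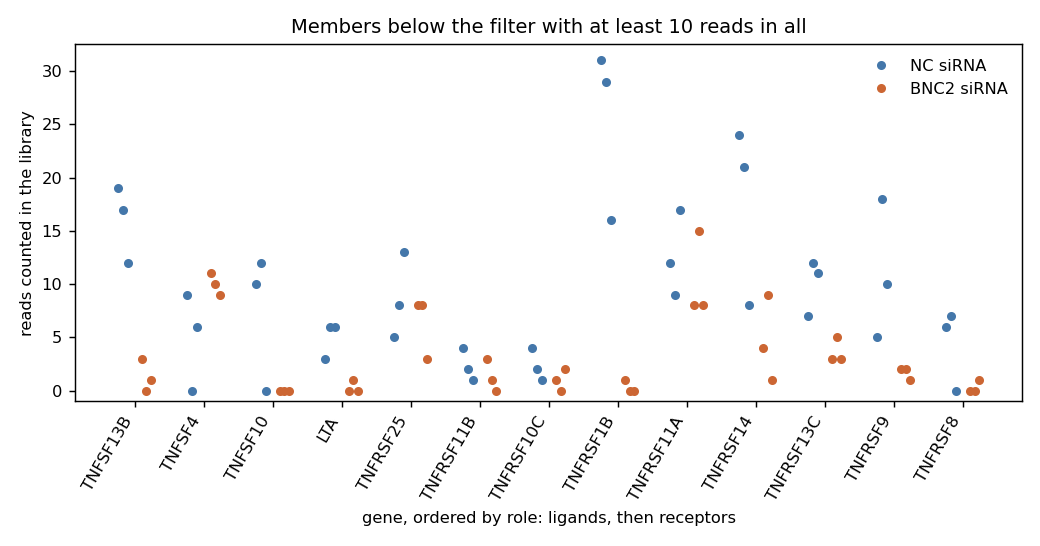
Reads counted per library for the 13 members below the filter with at least 10 reads in all, NC siRNA in blue and BNC2 siRNA in orange, on a linear axis. TNFRSF1B, TNFSF13B, LTA, TNFRSF9 and TNFRSF13C show no overlap between groups, while TNFRSF25 and TNFRSF11A overlap and TNFSF4 ties at 9 reads.

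The genes that act around these receptors were taken from lists written by role, and the calls in each list stand beside the 72.9% of all genes tested that were called. The list of receptor complex, ubiquitin and kinase genes held 25 genes, all of them tested, of which 8 rose, 8 fell and 9 were not called (64% called), and the median log2FC was -0.06. TNFAIP3, the ubiquitin-editing enzyme that damps NF-κB signalling, changed most: 26.0, 21.8 and 24.9 CPM became 10.1, 8.80 and 8.595 CPM (log2FC -1.40 ± 0.11 SE, adjusted p = 4.8e-09). TRAF1, an adaptor of TNFRSF1B and related receptors, fell by a log2FC of -0.66 (adjusted p = 7.3e-08), and TAB3, a partner of the kinase MAP3K7, by -0.72 (adjusted p = 2.8e-07). SHARPIN, a part of the linear ubiquitin ligase, rose by 0.73 (adjusted p = 3.9e-08). The core adaptors TRADD and RIPK1 were not called, with log2FC values of -0.11 (95% interval -0.49 to 0.27) and -0.06 (-0.20 to 0.07), values chosen for printing after they had been seen.
The death branch held 11 genes, of which 9 were tested, 4 rose, 4 fell and 1, XIAP, was not called (88.9% called), with a median of -0.12. CASP10 and RIPK3 were too low, and RIPK3 had no counts. CFLAR, which blocks CASP8 at death receptors, fell from 94.0, 84.4 and 91.8 CPM to 46.2, 50.4 and 44.4 CPM (log2FC -0.94, adjusted p = 3.7e-09). CASP8 itself rose slightly (0.20, adjusted p = 0.016), and MLKL, the effector of necroptosis downstream of RIPK3, rose by 1.49 (adjusted p = 9.6e-07).
Of 7 genes for shedding and processing, 2 rose, 3 fell and 2 were not called (71.4% called), with a median of -0.16. ADAM17, the sheddase of TNF and TNF receptors, fell by a log2FC of -0.65 (adjusted p = 3.8e-07), and the related ADAM10 rose by 0.50 (adjusted p = 1.6e-06). SPPL2A and SPPL2B, intramembrane proteases that cut the stub left in the membrane, changed by -1.02 (adjusted p = 2.7e-08) and 0.91 (adjusted p = 5.8e-07). Each of these closely related pairs thus moved in opposite directions.
Of 14 genes known to be induced by TNF through NF-κB, 9 were tested and all 9 fell, where 36.2% of all genes tested were called lower. The median log2FC was -1.27 against 0.00 for all genes. Because the list was written with earlier results of these data known, the count is descriptive and nothing is read from it about the pathway. TNFAIP3, BIRC3 and TRAF1 stand in this list and in that of the receptor complex. ICAM1, an adhesion molecule for leukocytes, fell from 90.4, 87.5 and 84.5 CPM to 18.3, 18.5 and 18.5 CPM (log2FC -2.25, adjusted p = 9.1e-14). SOD2, the mitochondrial superoxide dismutase, fell by -1.85 (adjusted p = 8.0e-14), and NFKBIA, the inhibitor that NF-κB induces against itself, by -1.27 (adjusted p = 1.3e-10). The 5 genes not tested were TNFAIP2, TNFAIP6, VCAM1, CXCL10 and CCL2, and CCL2 had 8, 18 and 21 counts with NC siRNA and 0 in each BNC2 siRNA library. Outside the naming rule stood EDA, EDA2R, EDARADD, RELT, RELL1 and RELL2, of which 4 were tested, and RELT and RELL2 fell by log2FC values of -0.42 (adjusted p = 0.0014) and -0.57 (adjusted p = 0.00062).

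**Figure D4:**
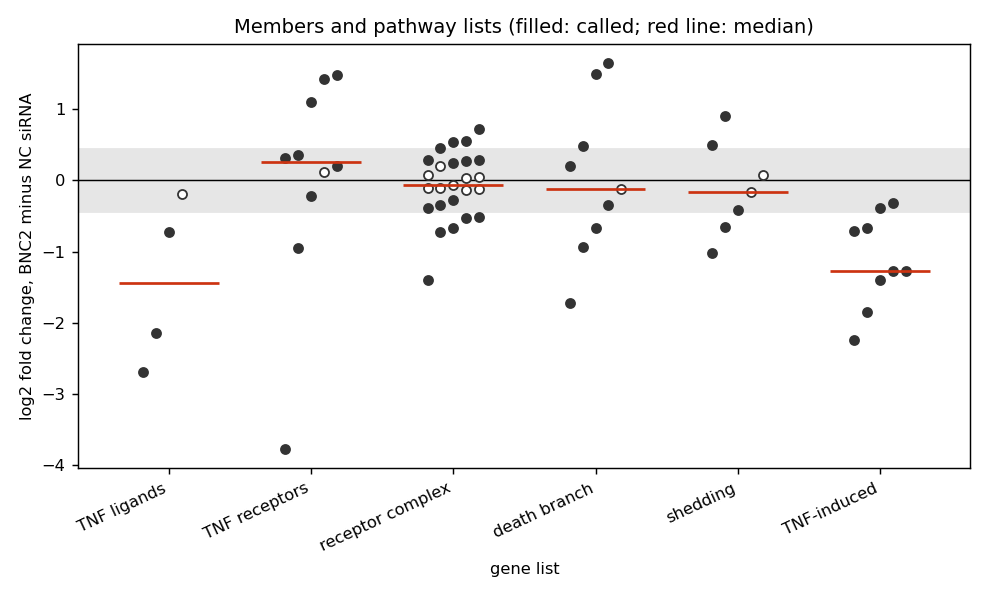
Log2 fold change of each tested gene in the lists of ligands, receptors and pathway genes, filled where called, with the median of each list in red and the interquartile range of all genes tested in grey. The receptor complex, death branch and shedding lists spread on both sides of 0 with medians of -0.06, -0.12 and -0.16, and all 9 TNF-induced genes lie below 0. The lists were written with earlier results of these data known.

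Members that are neighbours on a chromosome (under 500000 bases apart) included the TRAIL receptor genes, of which the 3 tested rose, with the weak call of TNFRSF10A among them. On chromosome 19, TNFSF9 fell while CD70 was not called. On chromosome 9, TNFSF15 fell beside TNFSF8, which had 1 count in each control and none after knockdown.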

How the data were processed

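Poly(A) RNA of BT549 cells was sequenced by the authors as single-end reads, which they aligned to hg19 (iGenomes UCSC annotation) with STAR 2.6.1d. They deposited STAR's gene counts of uniquely mapped reads, not normalised, in which a read on more than 1 gene is dropped. The series table equals the reverse-strand column of the library tables in every gene. Between 37.7% and 41.1% of reads were assigned to no gene and were left out.

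Genes above 1 CPM in 3 or more of the 6 libraries were kept, and their counts were scaled by TMM (factors 0.972 to 1.04) and compared with edgeR 4.0.16's quasi-likelihood test in R 4.3.3, BNC2 siRNA against NC siRNA. Adjusted p-values are Benjamini-Hochberg values over all genes tested, and a gene is called at 0.05 or below. The standard error is the log2 fold change divided by the square root of F. With 3 against 3 libraries an exact permutation test cannot go below p = 0.1. In a test on simulated data with 198 genes changed 2-fold among 12061, 190 (96.0%) were recovered with 5 false calls. These figures do not carry over to smaller changes, or to data in which 72.9% of the genes tested were called. Library totals of 16093978 to 18246254 counts limit the precision of low genes, and intervals of pooled counts cover counting error only.

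The members and lists were chosen with earlier results of these data known. Named genes are all members, the 4 largest called changes of each list, and TNFAIP3, CFLAR, CASP8 and ADAM17, with BNC2 as the target. Some genes that this rule names are not reported here. As alternatives, the study's edgeR likelihood ratio test, DESeq2 1.42.0, its size factors in edgeR, total counts, 2 other low-count filters (none and filterByExpr), both strands, a replicate block, and the removal of each library were run. Positions and transcripts come from GENCODE release 44 mapped to GRCh37, promoters from RefSeq, and siRNA sequences from the study's supplement.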

Additional observations from a re-analysis of the deposited data

How the results depend on the processing

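Over 14 alternatives, 139 of the 140 values of the 10 counts of calls stayed within 1.5 times the reported count. The exception was the number of members called lower without a filter on low counts, which was 13, since 36 members were then tested. The members called lower numbered 5 to 13, and those called higher 4 to 7. Of 193 values for the 14 members, none changed sign, 178 kept their side of the threshold, 11 lost the call and 4 gained it. TNFRSF10A was called in 6 of 14 settings, with adjusted p-values from 0.015 to 0.22. It was lost under DESeq2, total counts, both strands and the block, and when replicate 1 or 3 of either group was left out, with a lowest log2 fold change of 0.23. TNFRSF10B (adjusted p from 0.00077 to 0.090) was lost with total counts (log2 fold change 0.13) and without NC siRNA replicate 2 or NC siRNA replicate 3. CD70 (adjusted p from 0.0066 to 0.36) was called lower with total counts (-0.27) and without NC siRNA replicate 1 or BNC2 siRNA replicate 1 (-0.29 in each), and LTBR (adjusted p from 0.033 to 0.52) was called higher without the filter (0.15). NGFR did not pass the filter when an NC siRNA library was left out. The cause of these changes was not tested. Same-numbered replicates did not deviate together (correlations across genes of -0.21, -0.08 and -0.13). These correlations rest on 3 libraries in each group and do not settle whether the numbers pair the libraries. With a replicate block 5 members were called higher and 6 lower. Members below 1 CPM are limited by depth.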

Other observations

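Reads on the strand opposite to TNFSF14, which the counts leave out, numbered 68, 65 and 58 with NC siRNA and 34, 35 and 27 with BNC2 siRNA, against at most 3 reads on the strand of the gene. The groups did not overlap, and the gene from which these reads come was not determined. CD27, with no read on its own strand, had 8, 3 and 7 opposite-strand reads with NC siRNA and 0, 0 and 1 with BNC2 siRNA. EDAR, also with no read on its own strand, had 14, 6 and 5 against 3, 6 and 0. TNFSF8 had 18, 10 and 3 against 1, 7 and 3. The groups overlapped for EDAR and TNFSF8. Using the counts of both strands, as among the alternatives, would assign the reads opposite TNFSF14 and CD27 to those genes.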
